A study of Mus musculus with 6 samples.

Results

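Small nucleolar RNAs (snoRNAs), small Cajal body RNAs (scaRNAs) and the genes that carry snoRNAs in their introns were examined in mouse haematopoietic stem cells (HSCs). The members were all gene IDs of the deposited expression table whose gene name starts with Snora, Snord, Scarna or Snhg, or equals Gas5, with rows summed per ID. This gave 169 of 55471 IDs: 99 C/D box snoRNAs (Snord), 42 H/ACA box snoRNAs (Snora), 9 scaRNAs (Scarna) and 19 host genes (Snhg and Gas5). All 6 libraries came from animals of the ETV6-RUNX1 genotype, in which a leukaemia-associated fusion gene can be switched on. The 3 uninduced libraries had no doxycycline and the 3 induced libraries came from animals given doxycycline in food for 2 weeks. HSCs were sorted as Lin- Kit+ Sca1+ CD48- CD150+ cells. Doxycycline given without the fusion was not analysed here, so effects of the fusion and of the drug cannot be told apart. The labels used here do not give age, sex or the promoter that drives the fusion, and do not say whether a library holds 1 animal or a pool, so p-values measure the spread between these libraries only.

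C/D box RNAs guide the methylation of ribosomal RNA on ribose, and H/ACA box RNAs guide its conversion of uridine to pseudouridine. The scaRNAs guide the same changes on the RNAs of the spliceosome, in Cajal bodies. In mammals most guide RNAs are cut out of introns of a host gene after splicing. Many hosts encode proteins of the ribosome or nucleolus. The Snhg genes and Gas5 are hosts whose spliced RNA has little or no coding use and is often removed by nonsense-mediated decay. A guide and its spliced host RNA therefore come from the same primary transcript, and the protein shell bound by the guide protects it from decay. A few guides have their own promoters, among them Snord13 and Snord118.

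Sequences of members that the results turn on are shown first, from the GENCODE M21 transcripts on GRCm38 and written as DNA. In the C/D box RNAs the capitals mark the C box (TGATGA) and the D box (CTGA), to which the core proteins bind. Snord118 was lower in induced cells on the deposited scale and lies in no host gene, and Snord17 and Snord89 were higher after rescaling.

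Snord118: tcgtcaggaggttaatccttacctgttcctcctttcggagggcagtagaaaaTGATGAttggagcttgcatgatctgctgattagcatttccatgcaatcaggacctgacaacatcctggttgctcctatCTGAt
Snord17: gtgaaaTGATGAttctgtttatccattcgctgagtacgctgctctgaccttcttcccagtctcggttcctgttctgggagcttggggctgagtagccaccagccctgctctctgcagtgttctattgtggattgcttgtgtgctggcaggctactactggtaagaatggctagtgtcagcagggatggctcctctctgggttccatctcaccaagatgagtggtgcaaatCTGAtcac
Snord89: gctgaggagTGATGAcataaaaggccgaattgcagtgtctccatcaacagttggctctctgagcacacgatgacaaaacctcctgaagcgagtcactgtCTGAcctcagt

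Snord118 is annotated at chr11:69073427-69073561 on the plus strand. Snord17 lies at chr2:144265979-144266216 in an intron of Snx5, and Snord89 at chr1:39548745-39548854 in an intron of Gm15832, both on the minus strand. Of the 70 C/D box RNAs tested, 47 held TGATGA on the transcribed strand (67.1%), against 9.48% of the 7795 annotated transcripts of 64 to 238 bases. CTGA lay in the last 20 bases of 68 of the 70 (97.1%), against 13.8% of those transcripts.

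In the H/ACA box RNAs the capitals mark ACA placed 3 bases before the end. Snora33 and Snora44 were lower and Snora75 was higher in induced cells. Snora73a and Snora73b are near-identical copies from the same host that gave different values across libraries.

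Snora33: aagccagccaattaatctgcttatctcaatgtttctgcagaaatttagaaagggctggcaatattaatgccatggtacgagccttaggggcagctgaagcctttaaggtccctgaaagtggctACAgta
Snora44: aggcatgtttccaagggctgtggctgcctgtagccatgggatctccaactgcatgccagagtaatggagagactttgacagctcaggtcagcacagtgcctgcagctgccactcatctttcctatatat
Snora75: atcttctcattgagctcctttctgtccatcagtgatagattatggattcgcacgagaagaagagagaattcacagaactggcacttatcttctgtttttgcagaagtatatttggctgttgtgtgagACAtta
Snora73a: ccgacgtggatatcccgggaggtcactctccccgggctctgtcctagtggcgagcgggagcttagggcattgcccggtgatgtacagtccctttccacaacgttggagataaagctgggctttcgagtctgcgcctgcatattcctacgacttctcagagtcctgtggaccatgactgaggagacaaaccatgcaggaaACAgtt
Snora73b: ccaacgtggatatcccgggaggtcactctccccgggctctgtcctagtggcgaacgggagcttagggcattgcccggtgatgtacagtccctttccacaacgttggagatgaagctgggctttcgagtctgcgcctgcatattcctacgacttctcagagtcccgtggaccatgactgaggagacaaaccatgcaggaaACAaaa

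Snora33 is annotated at chr10:23785347-23785475 on the minus strand, over an exon of Rps12. Snora44 lies at chr4:132309941-132310069 on the plus strand over an exon of Snhg12, and its annotated sequence had no ACA at that place. Snora75 lies at chr1:86351169-86351301 on the minus strand, over an exon of Ncl, which encodes nucleolin. Over an exon here means overlap with an exon of any annotated transcript of the host. Such a guide may still lie in an intron of other transcripts of that host. Of the 40 H/ACA box RNAs tested, 33 had ACA 3 bases before the end (82.5%), against 9.29% of the 2918 annotated transcripts of 121 to 205 bases. None of the 70 C/D box RNAs had it, and none of the 40 H/ACA box RNAs held TGATGA. The boxes thus followed the names in most members.

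Values are TPM, a share of each library corrected for gene length and with the same total in every library. Of the 169 members, 147 were above 0 in at least 1 library. A gene was tested where its mean in the 6 libraries reached 1 TPM, and 135 members did: 70 C/D box RNAs, 40 H/ACA box RNAs, 9 scaRNAs and 16 host genes. Of the 19 members in the imprinted clusters, known for their expression in brain, the 17 Snord116l IDs were at 0 in every library, and Snord64 and Snord107 had means of 0.135 and 0.123 TPM. Sequencing depth is unknown, because TPM does not keep it, so no counting error can be given. In bulk samples fewer cells of a type and less RNA per cell cannot be told apart.

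The 8 HSC markers were all detected and summed to between 500 and 643 TPM in uninduced and between 566 and 622 TPM in induced libraries. By the test described below 3 of the 8 were higher and 2 lower, so the sum hides opposite changes. B cell genes Cd79a, Ebf1 and Pax5 and T cell genes Cd3e, Cd3g, Trbc1 and Trbc2 were at 0 in all 6 libraries. The 6 T cell and natural killer genes summed to between 5.84 and 15.8 TPM in uninduced and between 0 and 2.82 TPM in induced libraries, and Nkg7 was lower by the test (-3.23, adjusted p = 0.0038). The 8 erythroid markers summed to between 57.1 and 73.3 TPM in uninduced and between 392 and 453 TPM in induced libraries, and 5 of the 8 were higher by the test. None of the 8 was at 0 in all libraries. The 5 stromal and endothelial genes summed to between 13.7 and 23.5 TPM in uninduced and between 28.5 and 38.0 TPM in induced libraries, with Lepr and Col1a1 at 0. Cd48, which the sort selects against, with the progenitor genes Cd34 and Flt3 summed to between 49.1 and 62.9 TPM in uninduced and between 67.1 and 86.8 TPM in induced libraries, and neither of the 2 that could be tested was called. The 8 granulocyte and monocyte genes summed to between 163 and 199 TPM in uninduced and between 196 and 234 TPM in induced libraries, with 1 of 5 tested higher. The 5 megakaryocyte genes summed to between 101 and 135 TPM in uninduced and between 104 and 123 TPM in induced libraries, with 1 higher and 1 lower of 4 tested. Of all genes tested, 1.29% were higher and 10.2% lower. The part of these marker genes in the results below was not tested.

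Uninduced replicate 1 stood apart in the guide RNAs. It was the highest of the 6 libraries for 52 of 70 C/D box RNAs (74.3%), 23 of 40 H/ACA box RNAs (57.5%), 3 of 9 scaRNAs and 9 of 16 host genes, against 25.6% of all 13470 genes tested. Class sums and medians are therefore given with and without it.

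C/D box RNAs were the most abundant class by summed level, with 28361, 19888 and 21752 TPM in uninduced replicates 1 to 3 and 20508, 18328 and 19616 TPM in induced replicates 1 to 3. They made up between 1.83% and 2.84% of a library. The groups overlapped, and the induced mean (19484 ± 1096 TPM, SD, n = 3) was 16.5% below the uninduced mean (23334 ± 4452 TPM, SD, n = 3). Without uninduced replicate 1 the ratio of induced to uninduced means moved from 0.835 to 0.936.

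H/ACA box RNAs summed to 13025, 9984 and 10828 TPM in uninduced and 10830, 9151 and 9949 TPM in induced libraries, a mean 11.5% lower with overlapping groups. Without uninduced replicate 1 the ratio of means moved from 0.885 to 0.959. The scaRNAs summed to 1783, 2749 and 1702 TPM in uninduced and 2032, 1845 and 1452 TPM in induced libraries, also overlapping. The host genes, whose spliced RNAs are much less abundant, summed to 746, 627 and 546 TPM in uninduced and 401, 500 and 535 TPM in induced libraries. This was the class whose summed levels did not overlap, with a mean 25.2% lower after induction. Without uninduced replicate 1 the ratio moved from 0.748 to 0.816 for the host genes and from 0.855 to 0.798 for the scaRNAs. The direction for the scaRNAs rested on uninduced replicate 2, which held their highest sum. Without that library the induced scaRNA mean (1776 TPM) lay above the uninduced mean. Sums were not tested. Rescaled by the median of ratios, described below, the host sum had an induced to uninduced ratio of 0.992, and the C/D box, H/ACA box and scaRNA sums had ratios of 1.10, 1.16 and 1.15.

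Induced and uninduced libraries were compared gene by gene with limma on log2(TPM + 1) over all 13470 genes tested, with Benjamini-Hochberg adjustment and a threshold of 0.05. Of the 135 members tested, 1 was higher and 7 were lower in induced cells. Over all genes tested 1.29% were higher and 10.2% lower, so the members' share of calls in either direction (5.93%) was below that of all genes (11.5%). By class the calls were 0 higher and 2 lower of 70 C/D box RNAs, 1 higher and 2 lower of 40 H/ACA box RNAs, none of 9 scaRNAs, and 0 higher and 3 lower of 16 host genes. At an unadjusted p under 0.05 the counts in either direction were 19, 11, 0 and 4, or 25.2% of the members beside 27.9% of all genes. The call of Snhg15 was kept on leaving out any library. Each of the other 7 was kept on leaving out a single library of the 6 and lost without any of the remaining 5: uninduced replicate 1 for Snora75, uninduced replicate 2 for Snord13, Snord118 and Snora44, and uninduced replicate 3 for Snora33, Snhg12 and Snhg1.

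The groups did not overlap for 26 members, with 1 higher and 25 lower in every induced library (19.3%). Over all genes tested 33.1% did not overlap, 4.83% higher and 28.2% lower. The median change on the log2(TPM + 1) scale was -0.35 for C/D box RNAs, -0.13 for H/ACA box RNAs, -0.08 for scaRNAs and -0.44 for host genes, beside -0.35 for all genes tested. The change of an average gene in this table was thus itself below 0, and the C/D box median equalled it to 2 decimals. Without uninduced replicate 1 the medians were -0.10, -0.04, 0.02 and -0.14, and that of all genes was -0.33.

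Because the median of all genes was shifted, each result was also computed after median-of-ratios scaling, which sets the typical gene to no change (median -0.0027). On that scale the class medians were 0.04 for C/D box RNAs, 0.27 for H/ACA box RNAs, 0.32 for scaRNAs and -0.06 for host genes. The members called were then 3 higher (Snora75, Snord17 and Snord89) and 1 lower (Snhg15), beside 2.84% higher and 3.21% lower among all genes (6.05% in either direction). The groups did not overlap for 19 members that were higher and 5 that were lower, beside 13.4% and 14.5% of all genes (27.9% in either direction). Snora75 and Snhg15 were called on both scales.

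**Figure D1:**
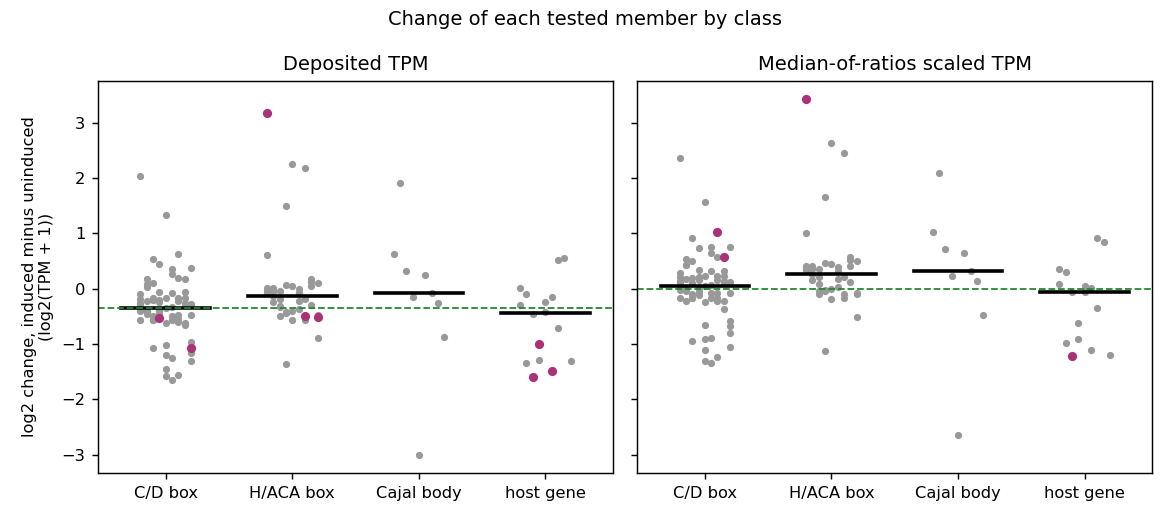
Change of each of the 135 tested members by class, as the log2(TPM + 1) difference of induced minus uninduced means, on the deposited scale (left) and after median-of-ratios scaling (right). Each point is a gene, black bars are class medians, the dashed line is the median of all genes tested, and purple points passed the test; the class medians lie near or above the dashed line on both scales.

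Among the host genes, Snhg15, Snhg12 and Snhg1 were lower in induced cells, while Gas5, the most abundant host RNA, differed by less than the spread between libraries. Snhg15, annotated at chr11:6525591-6528760 on the minus strand and host of Snora9, was at 37.3, 35.4 and 37.2 TPM in uninduced and 11.4, 9.33 and 14.0 TPM in induced libraries. The groups were far apart, and the libraries within each were close. The change was -1.60 (SE 0.23, adjusted p = 0.0039), and -1.22 after median-of-ratios scaling (adjusted p = 0.0125). It passed the threshold under each of the 18 other settings tried.

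Snhg12, host of Snora16a, Snora44, Snora61 and Snord99, was at 41.0, 38.7 and 13.7 TPM in uninduced and 7.49, 9.64 and 11.2 TPM in induced libraries. Uninduced replicate 3 lay close to the induced libraries without reaching them. The change was -1.49 (SE 0.39, adjusted p = 0.0388), and it missed the threshold after scaling (-1.11, adjusted p = 0.108).

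Snhg1, host of Snord22 and other C/D box RNAs, was at 55.8, 53.4 and 34.0 TPM in uninduced and 22.8, 17.7 and 29.2 TPM in induced libraries. The change was -1.003 (SE 0.26, adjusted p = 0.0379), and -0.61 after scaling (adjusted p = 0.132). As with Snhg12, uninduced replicate 3 was nearest to the induced libraries.

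Snhg6, host of Snord87, was at 38.6, 26.4 and 10.5 TPM in uninduced and 9.75, 7.38 and 7.38 TPM in induced libraries. The groups did not overlap, but the change of -1.35 missed the threshold (SE 0.41, adjusted p = 0.0617).

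Gas5, host of many C/D box RNAs and known to accumulate when growth stops, was at 226, 223 and 212 TPM in uninduced and 196, 184 and 243 TPM in induced libraries. Induced replicate 3 was the highest of all 6 and the other induced libraries were the lowest. The change was -0.10 (SE 0.15, adjusted p = 0.723) on the deposited scale and 0.30 (adjusted p = 0.172) after scaling. Gas5 made up between 30.3% and 48.9% of the host class.

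Snhg8 (-0.46, adjusted p = 0.249) and Snhg5 (-0.29, adjusted p = 0.633) had overlapping groups. Snhg3 (-1.28, adjusted p = 0.480) and Snhg4 (-0.72, adjusted p = 0.762) also overlapped, and both varied more than 5-fold among libraries of 1 group, as described below. Of the 16 host genes tested 13 had a change below 0, and 7 had a change above the median of all genes.

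**Figure D2:**
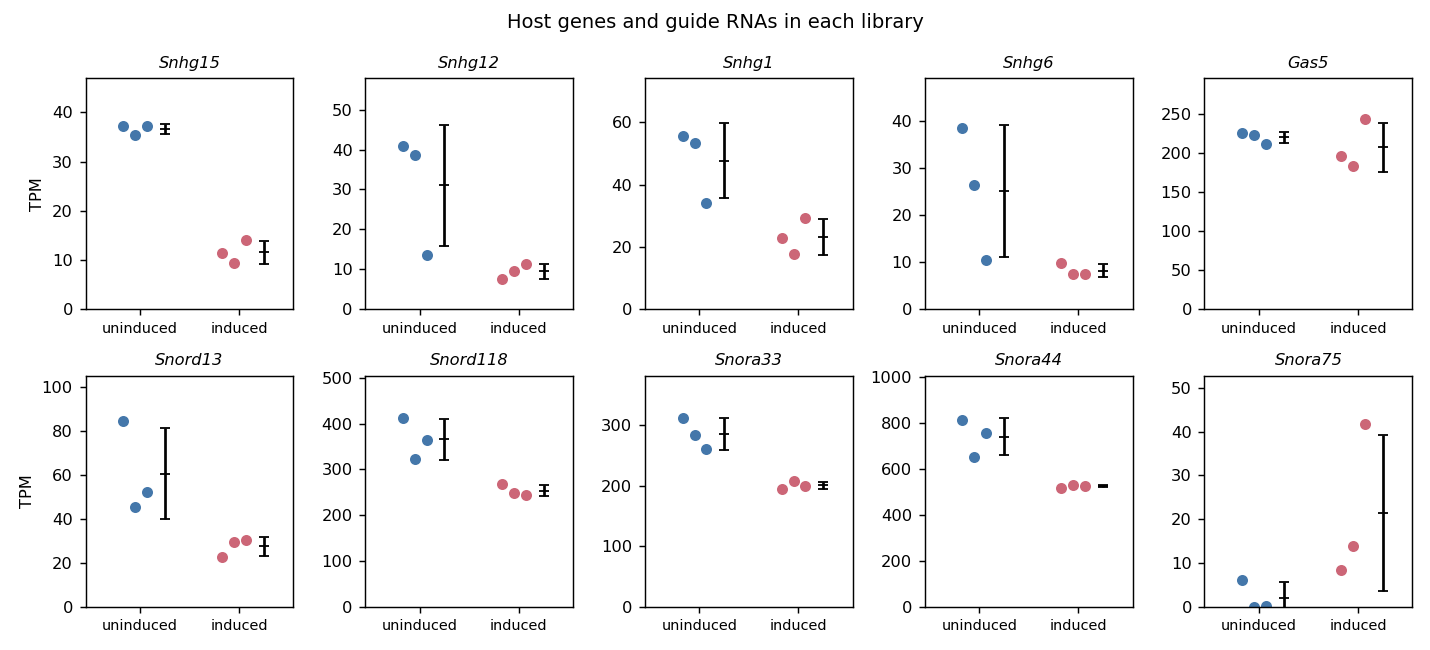
TPM of 5 host genes (top) and 5 guide RNAs (bottom) in each library, blue for uninduced and red for induced, with the group mean and SD (n = 3) beside the points; axes start at 0, where the lower SD bar of Snora75 is cut. Snhg15 falls into well separated groups, Gas5 overlaps, and Snora75 is the member that was higher after induction.

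Of the C/D box RNAs, 2 were lower in induced cells, and both are transcribed from their own promoters. Snord13, which pairs with the small subunit ribosomal RNA and is needed for its acetylation, was at 84.4, 45.3 and 52.2 TPM in uninduced and 22.5, 29.7 and 30.5 TPM in induced libraries. Uninduced replicate 1 was the highest, but the groups also stood apart without it. The change was -1.07 (SE 0.26, adjusted p = 0.0275), -0.81 without uninduced replicate 1 (adjusted p = 0.0824), and -0.68 after scaling (adjusted p = 0.162).

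Snord118, needed for the maturation of the large subunit ribosomal RNAs, was at 411, 322 and 364 TPM in uninduced and 268, 249 and 244 TPM in induced libraries. The change was -0.52 (SE 0.14, adjusted p = 0.0443). After scaling it was -0.12 (adjusted p = 0.682). Of the 9 guide RNAs tested that lie in no annotated host gene, these 2 were called lower and none higher, beside 10.2% and 1.29% of all genes. Neither was called after scaling.

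Snord22 and the copies of Snord14 and Snora73, guides known for cleavage of the ribosomal precursor, were not called. Snord22 was at 3249, 2563 and 2584 TPM in uninduced and 2473, 2435 and 2518 TPM in induced libraries. Its groups did not overlap, but the gap between them was small (-0.17, adjusted p = 0.436). The 3 copies of Snord14 that passed the filter, all in Hspa8, had changes of -0.05 (Snord14c), -0.36 (Snord14d) and -0.39 (Snord14e), with overlapping groups. The H/ACA box copies Snora73a and Snora73b had changes of 0.62 (SE 0.57, adjusted p = 0.521) and 0.06 (SE 0.14, adjusted p = 0.820). After scaling these were 1.02 and 0.46, and neither was called.

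The C/D box class was led by Snord15b, which made up between 19.7% and 27.5% of its summed level and is hosted by Rps3, a ribosomal protein gene. It was at 5585, 5478 and 4948 TPM in uninduced and 4965, 4318 and 4962 TPM in induced libraries, with overlapping groups (-0.17, SE 0.12, adjusted p = 0.397). Snord21, in Rpl5, had a change of -0.20 (adjusted p = 0.496).

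The 4 guides of Rpl13a, a set studied for its part in metabolic stress, had changes of -0.56 (Snord32a), -0.32 (Snord33), -0.24 (Snord34) and -0.40 (Snord35a). None was called, the adjusted p ranging from 0.154 to 0.530, and the groups overlapped for each.

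Snord17 and Snord89 were named after their values were seen, since they were called only after scaling. Snord17 was at 1358, 1374 and 1255 TPM in uninduced and 1552, 1278 and 1724 TPM in induced libraries, which overlapped (0.18, adjusted p = 0.432). After scaling the change was 0.58 (adjusted p = 0.0102). Snord89 was at 81.6, 53.0 and 41.6 TPM in uninduced and 104, 78.1 and 84.6 TPM in induced libraries. Uninduced replicate 1 lay above induced replicate 2, so the groups overlapped. The change was 0.63 (adjusted p = 0.129), and 1.03 after scaling (adjusted p = 0.0302). Its annotated host Gm15832 was far less abundant, with means of 0.00041 TPM in uninduced and 2.89 TPM in induced libraries (adjusted p = 0.162).

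Of the H/ACA box RNAs, 2 were lower by about the same amount and 1 was higher. Snora33 was at 312, 284 and 260 TPM in uninduced and 196, 207 and 200 TPM in induced libraries (-0.50, SE 0.14, adjusted p = 0.0443). Snora44 was at 810, 650 and 756 TPM in uninduced and 518, 529 and 525 TPM in induced libraries (-0.49, SE 0.13, adjusted p = 0.0411). The induced libraries lay within a narrow range for both. After scaling the changes were -0.10 and -0.09, with adjusted p of 0.673 and 0.760.

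Snora75 was at 6.18, 0.0311 and 0.110 TPM in uninduced and 8.49, 13.9 and 41.7 TPM in induced libraries. Every induced library was above every uninduced one, but uninduced replicate 1 came close to induced replicate 1 and both groups varied widely. The change was 3.17 (SE 0.77, adjusted p = 0.0284), and 3.43 after scaling (adjusted p = 0.0327). Without induced replicate 3 it was 2.56 (adjusted p = 0.114). Its host Ncl changed by -0.97.

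The most abundant H/ACA box RNA was Snora21, hosted by Rpl23, at 2293, 1974 and 1800 TPM in uninduced and 1678, 1472 and 1731 TPM in induced libraries. The groups did not overlap, and the change of -0.31 missed the threshold (SE 0.14, adjusted p = 0.168). Snora7a, in Rpl32, was likewise lower in every induced library with a change of -0.41 (adjusted p = 0.141).

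None of the 9 scaRNAs was called. Scarna2, which guides methylation of a spliceosomal RNA and lies in no annotated host, was at 471, 749 and 736 TPM in uninduced and 865, 719 and 808 TPM in induced libraries. Uninduced replicate 1 was the lowest, the reverse of its place among most C/D box RNAs. The change was 0.32 (SE 0.19, adjusted p = 0.303), and 0.72 after scaling (adjusted p = 0.0600).

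For Scarna13 and Scarna10 the value rested on a single library. Scarna13 was at 584, 572 and 471 TPM in uninduced and 560, 543 and 0 TPM in induced libraries. Its change of -3.01 became 0.03 without induced replicate 3, the library listed at 0. Scarna10 was at 102, 994 and 90.3 TPM in uninduced and 108, 114.6 and 122 TPM in induced libraries. Its change of -0.86 became 0.26 without uninduced replicate 2, the library with the high value.

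Each guide RNA tested was next set beside the gene on the same strand whose span holds it. This gave 110 pairs of tested genes with 81 hosts. Guides of the same host share its transcript and are not independent. The median change was -0.26 for the guides and -0.65 for the hosts. Scaling shifts both alike and nearly cancels in their ratio. The median change of the log2 ratio of guide to host was 0.47, and it was below 0 in 25 of the 110 pairs.

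The ratio was higher in every induced library than in any uninduced one for 26 of the 110 pairs (23.6%), which involve 23 hosts, and lower for 1 pair (0.909%). Of single genes 4.83% were higher and 28.2% lower without overlap on the deposited scale, and 13.4% and 14.5% after scaling. Ratios to genes other than the host were not computed, so the count is not shown to be particular to guides and their hosts. Other short RNAs also had higher medians than protein-coding genes (-0.36): -0.20 for further snoRNA genes and -0.02 for snRNA genes. Of the pairs 56 had the guide in an intron, and in 12 of those 56 (21.4%) the ratio was higher and in none lower. Where the guide overlapped an exon of any annotated host transcript the ratio was higher in 14 and lower in 1 of 54 pairs. Reads over an exon may count for either gene, and the authors' rule for them is not given in the sources used here.

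Of the 81 hosts, 37 were called lower and none higher, beside 10.2% and 1.29% of all genes. After median-of-ratios scaling 15 hosts were lower and none higher, beside 3.21% and 2.84% of all genes. These 37 held 53 pairs, in which 2 guides (Snora33 and Snora44) were lower and 1 (Snora75) was higher. Pairs whose host is one of the Snhg genes or Gas5 numbered 20, with 5 ratios higher and 1 lower. The pair with a lower ratio was Snord1a in Snhg16, with changes of -1.30 for the guide (adjusted p = 0.0615) and 0.01 for the host. Snord1a was low, at 4.02, 4.26 and 2.61 TPM in uninduced and 0.609, 0.932 and 1.04 TPM in induced libraries. With a pseudocount of 5 no ratio was lower. For Snord1b and Snord1c, guides of the same host, the ratio groups overlapped.

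Snora9 had a change of -0.44 (adjusted p = 0.143) in its host Snhg15 (-1.60). In Snhg12 (-1.49) the changes were -0.29 for Snora16a, -0.49 for Snora44, -0.57 for Snora61 and -0.62 for Snord99. The ratio groups did not overlap for Snora16a and Snora61 and overlapped for Snora44 and Snord99. Snord22 (-0.17) lies in Snhg1 (-1.003), and Snord87 (-0.48) in Snhg6 (-1.35).

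Among protein-coding hosts, Snora23 had a change of -0.04 in Ipo7 (-1.25), an import receptor gene, and Snora15 of 0.02 in Cct6a (-1.32), a chaperonin subunit gene. Snord57 and Snord110 had changes of -0.46 and -0.60 in Nop56 (-1.57), which itself encodes a core protein of C/D box particles. For these 4 guides, chosen after their values were seen, the ratio groups did not overlap. Other pairs went the opposite way with overlapping ratio groups. Snord43 had a change of -1.65 in Rpl3 (-0.84), Snord53 of -1.58 in Wdr43 (-1.04) and Snord73a of -1.56 in Rps3a1 (-0.53). Over 32 pairs with 23 ribosomal protein hosts the median change was -0.45 for guides and -0.66 for hosts. In Gas5 (-0.10) the guides Snord47, Snord78 and Snord80 had changes of -0.56, 0.26 and -0.17, and the ratio groups overlapped for all 3.

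**Figure D3:**
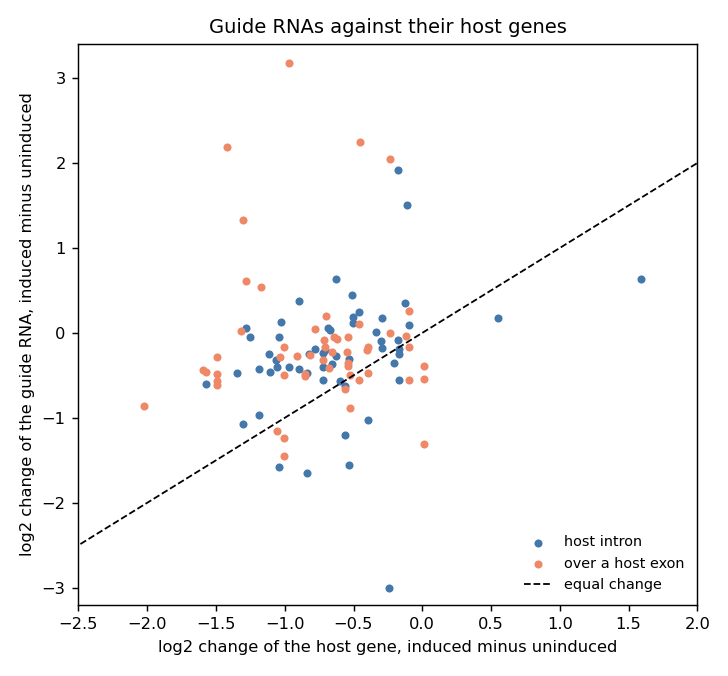
Log2(TPM + 1) change of each of 110 guide RNAs (vertical) against that of its host gene (horizontal), induced minus uninduced. Points above the dashed line of equal change, from introns (blue) or over exons (orange), are guides whose change lies above that of the host; the median change was -0.26 for guides and -0.65 for hosts.

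Most genes for the core proteins that guide RNAs bind were lower in induced cells. Of the 4 C/D box core proteins 3 were lower and of the 4 H/ACA box core proteins all 4 were lower, with median changes of -1.38 and -1.58. Among all genes tested 10.2% were lower, and the median change was -0.35. Fbl, the methyltransferase of C/D box particles, was at 109, 110 and 95.6 TPM in uninduced and 27.2, 32.8 and 42.5 TPM in induced libraries (-1.61, SE 0.20, adjusted p = 0.0022). Dkc1, the pseudouridine synthase of H/ACA box particles, was at 82.7, 97.0 and 48.8 TPM in uninduced and 20.9, 21.5 and 27.0 TPM in induced libraries (-1.63, SE 0.26, adjusted p = 0.0056). The groups did not overlap for either.

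The scaffold gene Nop56 changed by -1.57, and Snu13, which binds the box motif, by -1.14 (adjusted p = 0.0055 and 0.0187). Nop58, the partner of Nop56, was at 47.5, 46.2 and 30.2 TPM in uninduced and 11.4, 13.1 and 33.7 TPM in induced libraries. Induced replicate 3 reached into the uninduced range, and the change of -1.18 missed the threshold (adjusted p = 0.0698). The remaining H/ACA box proteins Nhp2, Nop10 and Gar1 changed by -1.52, -1.21 and -1.63 (adjusted p = 0.0043, 0.0139 and 0.0087). After scaling Fbl, Nop56, Dkc1, Nhp2 and Gar1 were still called lower, while Snu13 and Nop10 missed the threshold (adjusted p = 0.0666 and 0.0535).

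**Figure D4:**
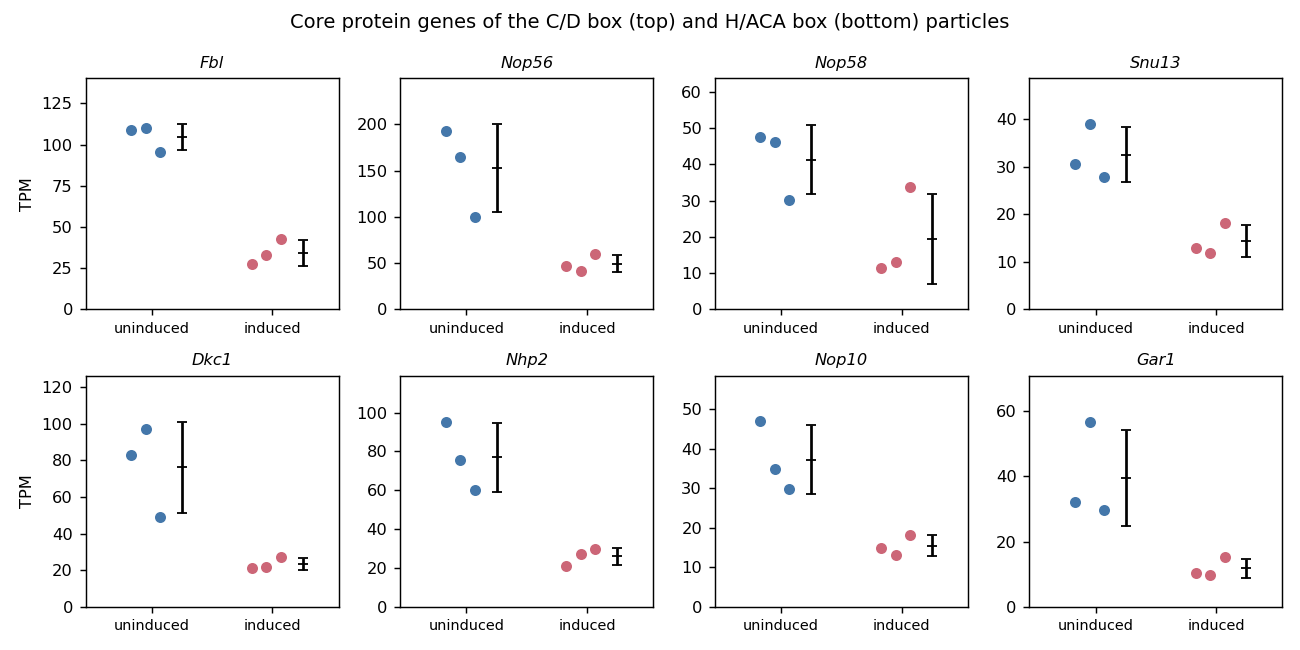
TPM of the 4 C/D box (top) and 4 H/ACA box (bottom) core protein genes in each library, blue for uninduced and red for induced, with the group mean and SD (n = 3); axes start at 0. The groups overlap for Nop58 and for none of the other 7 genes.

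The other lists are given beside all genes tested, of which 10.2% were lower (median -0.35). Of 11 assembly factors tested, 4 were lower and none higher (median -1.04): the chaperones Nolc1 (-1.75) and Tcof1 (-1.42), and the paired helicases Ruvbl1 (-1.04) and Ruvbl2 (-1.09). Of 9 Cajal body and transport genes 3 were lower (median -0.53), namely the cap-binding genes Ncbp1 (-1.21) and Ncbp2 (-0.999) and the export receptor Xpo1 (-0.97). Of 21 trimming and decay genes 1 was lower (median -0.54), the exosome nuclease gene Dis3 (-1.28), a share below that of all genes. Of 15 genes of nonsense-mediated decay, the pathway that acts on many host transcripts, 6 were lower (median -0.53): Upf3a, Upf3b, Smg5, Eif4a3, Magoh and Rbm8a.

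In all 21 of the 64 genes on the 6 lists were lower and none higher on the deposited scale, beside 10.2% and 1.29% of all genes. After median-of-ratios scaling 8 were lower and none higher, beside 3.21% and 2.84% of all genes. The 8 were 2 C/D box and 3 H/ACA box core proteins and 3 assembly factors, so no call was left in the other 3 lists.

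A few members swung between high and low values without regard to group. Snhg3 was at 11.4, 110 and 122 TPM in uninduced and 6.69, 10.2 and 136 TPM in induced libraries. Snora73a, which overlaps an exon of Snhg3, was at 435, 104 and 112 TPM in uninduced and 414, 374 and 119 TPM in induced libraries. The 3 libraries with low Snhg3 were the 3 with high Snora73a. Snora73b lies in an Snhg3 intron at chr4:132352322-132352526 and is 96.6% identical to Snora73a, with 7 of 205 bases different. It stayed between 402 and 516 TPM in all 6 libraries.

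Snhg4 and Snora74a, which overlaps an exon of it, showed the same mirrored pattern in other libraries. Snhg4 was at 191, 7.42 and 16.7 TPM in uninduced and 5.41, 152 and 5.57 TPM in induced libraries. Snora74a was at 504, 1053 and 937 TPM in uninduced and 1083, 387 and 1008 TPM in induced libraries. The 2 libraries with high Snhg4 were the 2 with low Snora74a. How reads over the shared bases were divided between guide and host was not tested.

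**Figure D5:**
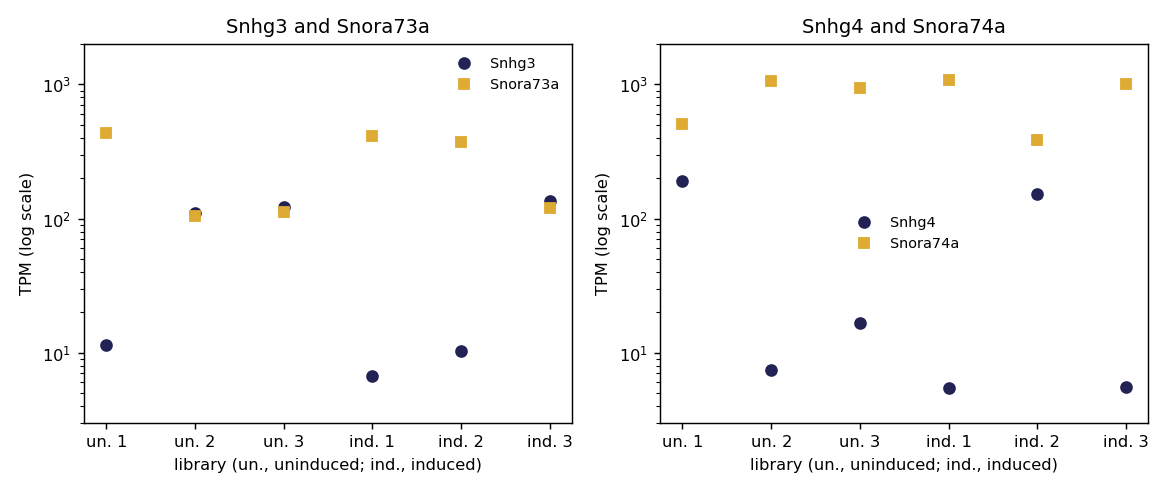
TPM on a log scale of Snhg3 with Snora73a (left) and of Snhg4 with Snora74a (right) in each of the 6 libraries. In each panel the host (circles) is high in the libraries where the guide (squares) is low, and both groups hold libraries of either kind.

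Guides with a wider spread than these were counted by their place in the host. Among guides with a mean of at least 10 TPM, 10 of 51 over a host exon varied more than 5-fold within a group, among them Scarna10. Snora75 is counted among the 10 for its uninduced libraries, which lie under 10 TPM. In host introns 5 of 47 did, among them Scarna13, and of the guides with no host none of 8 did. No test was made of this difference.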

How the data were processed

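Total RNA of 6 sorted HSC libraries was sequenced as paired reads. Expression values are TPM, deposited by the authors as one table of 60496 rows. The submitters' processing notes name bcl2fastq, HISAT2, StringTie, DESeq2 and GRCm38, without versions or roles. The annotation release is not given in the sources used here. GC content in percent is a column of the deposited table, per the file headers, and was not used in any test. Rows were summed per gene ID, and columns total 999976 to 999993 TPM. TPM keeps no depth, so none can be given. TPM of very short genes also depends strongly on the length used.

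Tests used limma 3.58.1 in R 4.3.3 on log2(TPM + 1) for the 13470 genes averaging 1 TPM or more, two-sided, with a variance trend and Benjamini-Hochberg adjustment at 0.05. The pseudocount understates changes of low genes. Groups came from library titles. Positions, hosts and sequences came from GENCODE M21 on GRCm38, which holds all 169 member IDs and 55144 of the 55471 table IDs. Symbols Snora16a, Snora43, Snord80 and Snhg4 have 2 IDs each, kept apart. The more abundant ID of Snora16a, Snord80 and Snhg4 is the one described.

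Named members were, per class, the 3 most abundant and up to 5 called each way with groups apart, with fixed lists of host genes, ribosomal RNA cleavage guides, Rpl13a guides, imprinted guides and core proteins. Other guides named beside their hosts, and Snord17 and Snord89, fall outside this rule and were chosen after their values were seen. The members and lists were chosen with earlier results of these data known. The 18 other settings covered pseudocounts, filters, scalings, variance models, the replicate block and left-out libraries. Alternatives for the guide to host ratio were added after seeing the data.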

Additional observations from a re-analysis of the deposited data

How the results depend on the processing

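The lower calls on the deposited scale were sensitive to scaling, to the filter and to single libraries, apart from Snhg15. With 1 higher and 7 lower members as reported, the counts were 1 and 7 with pseudocounts of 0.1 and 5 and with the highest row of each ID, 0 and 1 with no filter, 1 and 10 with a mean of at least 5 TPM, 0 and 2 with no variance trend, and 1 and 9 with array weights. They were 3 and 1 with median-of-ratios scaling, 2 and 1 with quantile normalization, 4 and 1 when rescaled to nuclear protein-coding genes, and 6 and 1 for TPM without other short RNA genes. Leaving out 1 library gave between 0 and 2 higher and between 1 and 7 lower calls: 2 and 1 without uninduced replicate 1, 0 and 6 without uninduced replicate 2, 0 and 7 without uninduced replicate 3, 0 and 1 without induced replicate 1, 1 and 2 without induced replicate 2, and 0 and 1 without induced replicate 3. Over all genes tested 1.29% were higher and 10.2% lower as reported, and 2.84% and 3.21% with median-of-ratios scaling. Shares over all genes under the other settings are not given here. The movement of these counts is therefore not shown to be particular to the members, and its cause was not tested.

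Same-numbered libraries did not deviate together (correlations of 0.0215, -0.0152 and 0.0172), so the numbers were not taken as pairs. With the replicate block 1 member was higher and 2 were lower, and 12 of the 64 protein genes were lower in place of 21. Median-of-ratios scaling, quantile normalization, rescaling to nuclear protein-coding genes and TPM without other short RNA genes each gave 8 lower. Of all genes 3.21% were lower with median-of-ratios scaling. The shares with the replicate block and the other scalings are not given here.

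The median change moved with scaling. With median-of-ratios scaling it was 0.043 for C/D box RNAs, 0.27 for H/ACA box RNAs, 0.32 for scaRNAs and -0.061 for host genes. With rescaling to nuclear protein-coding genes it was 0.080, 0.31, 0.35 and -0.027. The ratios of summed levels were 1.10, 1.16, 1.15 and 0.992 with the first and 1.12, 1.19, 1.18 and 1.02 with the second. Without one library the median of the host genes ranged from -0.69 (without uninduced replicate 3) to -0.14 (without uninduced replicate 1).

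Of guide to host pairs, 26 ratios were higher and 1 lower with a pseudocount of 0.1, 23 and 0 with 5, and 12 and 0 with guides in host introns only, where fewer pairs were counted.

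Several members that were not called changed sign with scaling, under which the median of all genes also moved, from -0.35 to between -0.0048 and 0.029. With median-of-ratios scaling the changes were 0.30 (Gas5), 0.081 (Snhg5), 0.091 (Snora21), 0.32 (Snora74a), 0.34 (Snord14c), 0.041 (Snord14d), 0.23 (Snord15b), 0.20 (Snord21), 0.23 (Snord22), 0.076 (Snord33), 0.16 (Snord34) and 0.00038 (Snord35a). With quantile normalization they were 0.29 (Gas5), 0.074 (Snhg5), 0.21 (Snora74a), 0.36 (Snord14c), 0.062 (Snord14d), 0.085 (Snord22), 0.090 (Snord33) and 0.10 (Snord34). With rescaling to nuclear protein-coding genes they were 0.34 (Gas5), 0.11 (Snhg5), 0.13 (Snora21), 0.36 (Snora74a), 0.029 (Snora7a), 0.38 (Snord14c), 0.077 (Snord14d), 0.013 (Snord14e), 0.27 (Snord15b), 0.24 (Snord21), 0.27 (Snord22), 0.11 (Snord33), 0.20 (Snord34) and 0.037 (Snord35a). For TPM without other short RNA genes they were 0.35 (Gas5), 0.12 (Snhg5), 0.13 (Snora21), 0.37 (Snora74a), 0.035 (Snora7a), 0.39 (Snord14c), 0.084 (Snord14d), 0.020 (Snord14e), 0.27 (Snord15b), 0.25 (Snord21), 0.28 (Snord22), 0.12 (Snord33), 0.20 (Snord34) and 0.044 (Snord35a).

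Leaving out one library, the changes ranged from -1.47 to 0.26 for Scarna10, -4.54 to 0.030 for Scarna13, -2.24 to 0.61 for Snhg4, -0.014 to 0.17 for Snora73b, -0.40 to 0.40 for Snora74a, -0.29 to 0.27 for Snord14c, -0.87 to 0.11 for Snord14e and -0.49 to 0.0054 for Snord34.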

Other observations

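Other short RNA genes gave values for comparison with the guides. Leaving out the members, 178 further genes annotated as snoRNAs were tested, of which 0 were higher and 5 lower (2.81%), with a median change of -0.20. Of 183 spliceosomal and related snRNA genes 0 were higher and 4 lower (median -0.02). Of 181 microRNA genes 5 were higher and 6 lower (6.08%, median -0.21), and of 33 genes annotated as miscellaneous RNA 0 were higher and 1 lower (median -0.06). Of 543 long noncoding RNA genes 15 were higher and 13 lower (median 0.03). Of 10574 protein-coding genes 144 were higher and 1211 lower (12.8%), with a median of -0.36. After median-of-ratios scaling 3 snoRNA genes were higher and 1 lower, 11 snRNA genes were higher and 0 lower, 5 microRNA genes were higher and 3 lower, 7 miscellaneous RNA genes were higher and 0 lower, 17 long noncoding RNA genes were higher and 6 lower, and 321 protein-coding genes were higher and 383 lower.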
